A study of Mus musculus with 22 samples.

Results

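Retinoids are vitamin A and its derivatives. Retinol is released into blood bound to a carrier protein, enters cells through membrane receptors, and is stored as retinyl esters or oxidized, first to retinal and then to retinoic acid. Retinoic acid binds nuclear receptors of the RAR family, which pair with RXR partners on DNA and switch genes on or off. The kidney filters the retinol carrier and takes it back in the proximal tubule, and retinoic acid is known for its role in nephron development.

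A set of 7 genes of this system, chosen by symbol from the 32858 genes of the count table, was followed across kidneys of mice given cisplatin, KW6002, or both. Their products are STRA6L, a membrane receptor for the retinol carrier, the carrier RBP4, the dehydrogenases RDH10 and RDH16F2, whose family interconverts retinol and retinal, and the nuclear receptors RARA, RARB, and RXRA. The choice was made with the values in view, because Stra6l and Rdh16f2 lay above both the vehicle and the cisplatin group in the co-treated kidneys. All 7 members had enough counts to be tested.

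Kidney RNA came from 22 male C57Bl6/J mice aged 8 to 10 weeks, all without a genetic change. The vehicle group held 5 mice, and 6 mice received KW6002 (istradefylline, an adenosine receptor antagonist) at 3 mg/kg daily from day -5 to day 7. Another 5 mice received cisplatin, a platinum drug that damages the proximal tubule, as 6 daily injections of 3 mg/kg, and 6 mice received cisplatin and KW6002 on the same schedules. Kidneys were taken 72 hours after the last cisplatin injection, so each group describes one dose schedule at one time. Every library came from whole kidney, in which fewer cells of a type and less RNA per cell cannot be told apart. Each library carries a number of its own in the labels. The labels do not say what it stands for, and it is read here as a mouse number. On that reading, p-values measure the spread between mice.

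Totals ran from 26471762 to 40510754 counts per library. Levels are given as CPM, a library's counts for a gene scaled to a common depth after TMM normalization. A gene passed a comparison at an adjusted p below 0.05 in edgeR's quasi-likelihood test, with Benjamini-Hochberg adjustment over all 17131 genes tested. Genes that also passed stricter limits, with an adjusted p under 0.01 and a change of more than 1 on the log2 scale either way, were counted too. All 9 proximal tubule markers passed as lower with cisplatin than with vehicle, beside 35.9% of all genes. Their summed level was 37000 to 41200 CPM with vehicle, 2640 to 4800 CPM with cisplatin, and 7290 to 13400 CPM with co-treatment. Co-treated replicate 6 held 64.4 CPM of 5 adrenal markers, against at most 2.7 CPM in any other library. Label numbers lay in the 300s for 3 of 5 vehicle and 3 of 6 KW6002 mice, and in the 500s for all others.

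Rdh16f2 and Stra6l are shown first, because they set the co-treated kidneys apart. Rdh16f2 lies at chr10:127866474-127877317 on the plus strand and Stra6l at chr4:45848664-45887008 on the plus strand (mm10, GENCODE M21), and no other annotated gene overlaps either of them. The bases just before the annotated start of each gene, from the RefSeq promoter windows (GRCm38.p6), are printed for their sequence context, 5′ to 3′. AGGTCA, the core letters that many nuclear receptors bind, is in capitals. The stretches are chr10:127866226-127866473 and chr4:45848566-45848663.
Rdh16f2: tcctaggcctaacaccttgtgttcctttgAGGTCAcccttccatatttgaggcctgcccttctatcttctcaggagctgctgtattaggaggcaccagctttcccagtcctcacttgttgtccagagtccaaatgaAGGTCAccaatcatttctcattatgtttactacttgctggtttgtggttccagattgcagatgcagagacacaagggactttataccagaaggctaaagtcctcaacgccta
Stra6l: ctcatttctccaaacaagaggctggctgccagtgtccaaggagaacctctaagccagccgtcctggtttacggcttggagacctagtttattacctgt
The Rdh16f2 stretch held AGGTCA 2 times, 221 to 216 and 114 to 109 bases before the RefSeq start. Neither of the Stra6l windows held these letters on either strand. AGGTCA was found, counting both strands, in 5340 of all 32851 promoter windows (16.3%) and in 13 of the 63 windows of the retinoid pathway genes listed here (20.6%), so a match in a window is common.

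A stricter motif is the retinoic acid response element, a direct repeat of the receptor half-site with 5 bases between. It was found in 32 of the 32851 windows (0.0974%), counting both strands. Among the 44 retinoid pathway genes with a window, it was found for 2, Rarb and Cyp26a1, the latter coding for an enzyme that breaks down retinoic acid and named here for this match. Both stretches are printed with the repeat in capitals, Rarb from chr14:16575507-16575535 on the minus strand and Cyp26a1 from chr19:37697770-37697798 on the plus strand, where the repeat reads along the opposite strand.
Rarb: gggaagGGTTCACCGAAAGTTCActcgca
Cyp26a1: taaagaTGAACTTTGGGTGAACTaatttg
The repeat lies 53 to 37 bases before the RefSeq start of Rarb and 32 to 16 bases before that of Cyp26a1. Windows were given for 6 of the 7 members, without Rdh10.

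STRA6L (also known as RBPR2) takes up retinol from the circulating carrier. Stra6l stood at 17.2, 19.4, 13.2, 21.2, and 18.5 CPM in vehicle replicates 1 to 5 and at 16.1, 16.8, 22.2, 25.0, and 31.6 CPM in the cisplatin replicates. The KW6002 group ran from 14.5 to 19.5 CPM with a median of 16.4 CPM, and the co-treated group from 43.9 to 90.6 CPM with a median of 67.6 CPM. All 6 co-treated libraries lay above all 16 others, whose highest was 31.6 CPM, and the other groups overlapped one another. Group means were 17.9 ± 2.99 CPM (SD, n = 5) with vehicle, 16.4 ± 1.93 (n = 6) with KW6002, 22.4 ± 6.38 (n = 5) with cisplatin, and 67.9 ± 15.6 (n = 6) with cisplatin plus KW6002.

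The ratio of the co-treated mean of Stra6l was 3.79 to the vehicle mean and 3.04 to the cisplatin mean. These differences, a log2 fold change of 1.92 (SE 0.17) against vehicle and 1.60 (SE 0.17) against cisplatin, chose the gene and carry no test. Without co-treated replicate 6, the library with adrenal markers and the lowest Stra6l level of its group, they were 2.02 and 1.70. Cisplatin alone gave a log2 fold change of 0.32 (SE 0.18) against vehicle, which did not pass (adjusted p = 0.113), and KW6002 alone gave -0.12 (SE 0.17, adjusted p = 0.823). The cisplatin value passed without cisplatin replicate 1 (0.42, adjusted p = 0.0432) and when scaled by library size only (0.54, adjusted p = 0.0105).

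RDH16F2 belongs to a cluster of dehydrogenases that act on retinol and steroids. Rdh16f2 stood at 139, 125, 116, 127, and 136 CPM in vehicle replicates 1 to 5, and at 31.1, 71.9, 85.8, 97.5, and 122 CPM in cisplatin replicates 1 to 5. The co-treated group ran from 232 to 356 CPM with a median of 265 CPM, and the KW6002 group from 73.8 to 175 CPM with a median of 107 CPM. The 6 co-treated libraries lay above all 16 others. The KW6002 libraries were more spread than the vehicle libraries, with 107 to 175 CPM in the 3 mice numbered in the 300s and 73.8 to 107 CPM in the 3 numbered in the 500s.

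Group means of Rdh16f2 were 129 ± 8.91 CPM (SD, n = 5) with vehicle, 118 ± 44.3 (n = 6) with KW6002, 81.7 ± 33.7 (n = 5) with cisplatin, and 276 ± 45.2 (n = 6) with cisplatin plus KW6002. The ratio of the co-treated mean was 2.15 to the vehicle mean and 3.38 to the cisplatin mean, with log2 fold changes of 1.10 (SE 0.25) and 1.76 (SE 0.26), given as a description. Without co-treated replicate 6, they were 1.02 and 1.67. Cisplatin alone lowered Rdh16f2, by a log2 fold change of -0.66 (SE 0.26, adjusted p = 0.0288), though the groups overlapped. That call was lost without cisplatin replicate 1 (-0.45, adjusted p = 0.0694), without cisplatin replicate 2 (-0.61, adjusted p = 0.0605), and without vehicle replicate 1 (-0.63, adjusted p = 0.0501). It was also lost when only mice of the 500s were kept (-0.69, adjusted p = 0.0565), with the label series as a covariate (-0.42, adjusted p = 0.179), and when scaled by library size only (-0.44, adjusted p = 0.122). KW6002 alone gave -0.13 (SE 0.25, adjusted p = 0.884).

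Of all 17131 genes tested, 3.14% had every co-treated library above every vehicle and every cisplatin library, and 2.4% had every co-treated library above all other libraries. Stra6l and Rdh16f2 were chosen by this pattern, so nothing is read from their place among these genes. None of the other 46 retinoid pathway genes tested had it. Of the 9 proximal tubule markers, 8 passed as higher in the co-treated than in the cisplatin group, beside 28.6% of all genes. All 9 passed as lower in the co-treated than in the vehicle group, beside 29.9% of all genes. The part of these markers in the Stra6l and Rdh16f2 values was not tested.

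**Figure D1:**
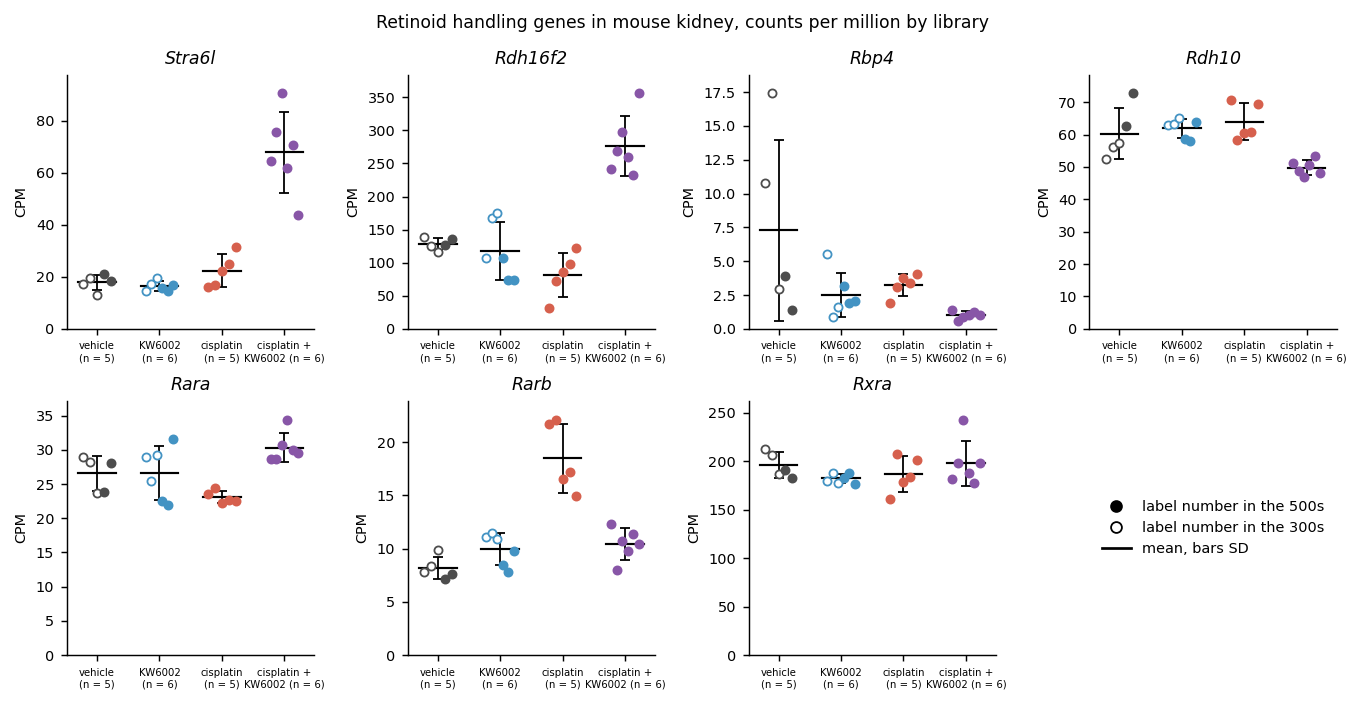
CPM of the 7 members (vertical axes, each from 0) in each of 22 kidneys, by group. Points are libraries, filled for label numbers in the 500s and open for the 300s, and lines with bars are means and SD. The 6 co-treated points of Stra6l and Rdh16f2 lie above all others, Rarb is highest with cisplatin, and Rbp4 varies most in the vehicle group.

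RBP4, the retinol carrier in blood, is made mainly by liver and fat. Rbp4 (chr19:38116629-38125281, minus strand) stood at 10.8, 17.4, 2.92, 3.87, and 1.43 CPM in vehicle replicates 1 to 5 and at 1.92, 3.11, 3.76, 3.37, and 4.08 CPM in the cisplatin replicates. The co-treated group ran from 0.596 to 1.37 CPM with a median of 1.02 CPM, and the KW6002 group from 0.888 to 5.5 CPM with a median of 1.96 CPM. Vehicle replicates 1 and 2 stood far above the rest, and all co-treated libraries lay below all vehicle and all cisplatin libraries, as a description (18.5% of all genes did so against vehicle, and 18.5% against cisplatin). Counts of Rbp4 were low, 19 to 43 per co-treated library.

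Markers of fat were measured beside Rbp4. Their summed level, over 9 genes such as Adipoq and Plin1, was 929 and 1650 CPM in vehicle replicates 1 and 2 and 210 to 444 CPM in the other 3 vehicle libraries. It ran from 101 to 718 CPM with KW6002, from 485 to 950 CPM with cisplatin, and from 70.6 to 454 CPM with cisplatin plus KW6002. With cisplatin, where Rbp4 was called lower than with vehicle, 2 of the 9 fat markers passed as lower and none as higher. Over all genes these shares were 35.9% and 34.6%. The fat markers had a median log2 fold change of -0.40 and a median summed level of 615 CPM, against 444 CPM with vehicle. In the co-treated group 7 of 9 passed as lower than with cisplatin, with a median of -1.96, beside 27.2% of all genes, and Lep, the leptin gene, had at most 3 counts in every co-treated library. Of 7 liver markers, Cps1 had at most 3 counts in every library and Ahsg in every library outside the cisplatin group. The summed level of the liver list was 37.8 to 54.8 CPM with vehicle and 28.7 to 74.5 CPM with KW6002. It was 968 to 1210 CPM with cisplatin and 409 to 1010 CPM with cisplatin plus KW6002. Of its 5 tested genes, 3 passed as higher and 1 as lower with cisplatin than with vehicle, beside 34.6% and 35.9% of all genes. The part of the liver list in the Rbp4 values was not tested.

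Rbp4 was lower with cisplatin than with vehicle (log2 fold change -1.16, SE 0.49, adjusted p = 0.0377), and 7.3 ± 6.71 CPM (SD, n = 5) with vehicle stood against 3.25 ± 0.829 CPM (n = 5) with cisplatin. When mice of the 300s, which include vehicle replicates 1 to 3, were left out, the value turned to 0.29 (adjusted p = 0.473). The call was lost without vehicle replicate 2 (-0.56, adjusted p = 0.275), without vehicle replicate 1 (-0.97, adjusted p = 0.0973), without cisplatin replicate 1, 2, or 4 (adjusted p = 0.0874, 0.0631, and 0.0575), and in DESeq2 (adjusted p = 0.053). With the fat marker mean as a covariate, it was -0.63 (adjusted p = 0.0496). KW6002 alone gave -1.52 (SE 0.47), which did not pass (adjusted p = 0.237).

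Co-treated kidneys held 1.02 ± 0.274 CPM of Rbp4 (SD, n = 6), a log2 fold change of -1.67 (SE 0.51) against cisplatin and -2.83 (SE 0.51) against vehicle. With the fat marker mean as a covariate, these became -0.22 and -0.86. The part of fat tissue in the difference beyond this covariate was not tested.

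**Figure D2:**
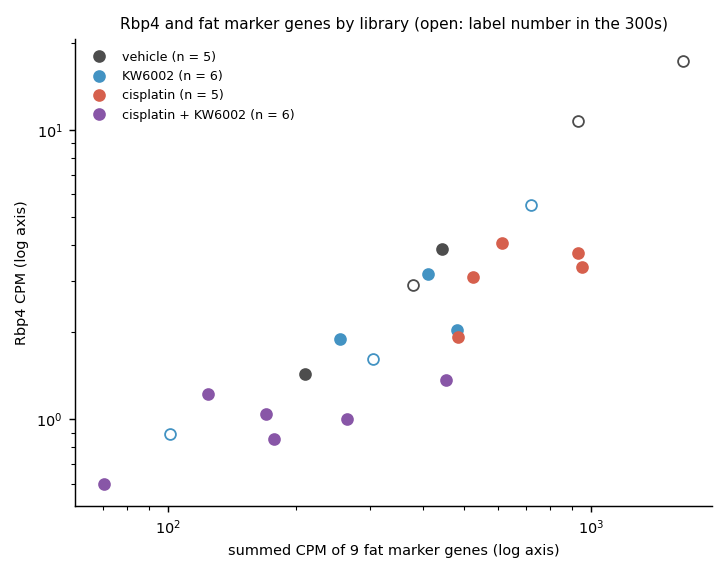
Rbp4 in CPM (vertical, log axis) against the summed CPM of 9 fat marker genes (horizontal, log axis), 1 point per kidney, coloured by group and open for label numbers in the 300s. Vehicle replicates 1 and 2, at 10.8 and 17.4 CPM of Rbp4 and 929 and 1650 CPM of fat markers, lie at the upper right. The co-treated kidneys, at 0.596 to 1.37 CPM of Rbp4, lie below all vehicle and cisplatin kidneys. KW6002 replicate 2, at 0.888 CPM, lies within their range.

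RDH10 oxidizes retinol to retinal. Rdh10 (chr1:16105774-16133734, plus strand) ranged from 52.3 to 72.7 CPM with vehicle, 57.9 to 65.2 with KW6002, 58.2 to 70.7 with cisplatin, and 46.8 to 53.3 with cisplatin plus KW6002. The co-treated libraries lay below all cisplatin libraries, as for 18.5% of all genes, and, in 5 of 6 cases, below all 16 others. Neither cisplatin (log2 fold change 0.09, SE 0.07, adjusted p = 0.293) nor KW6002 (0.04, SE 0.07, adjusted p = 0.867) gave a difference from vehicle that passed. The co-treated mean of 49.8 ± 2.36 CPM (SD, n = 6) corresponded to -0.36 (SE 0.07) against cisplatin and -0.27 (SE 0.07) against vehicle, opposite in sign to Rdh16f2. The cisplatin value passed without vehicle replicate 5 (0.16, adjusted p = 0.028) and when scaled by library size only (0.31, adjusted p = 0.000966).

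RARB is a retinoic acid receptor whose gene is itself a known target of retinoic acid. Rarb (chr14:16430839-16819156, minus strand) ranged from 7.19 to 9.88 CPM with vehicle and stood at 21.7, 22.1, 16.5, 17.2, and 14.9 CPM in cisplatin replicates 1 to 5. All cisplatin libraries lay above all vehicle libraries, a separation in that direction that 27.4% of all genes tested showed. Rarb rose with cisplatin from 8.17 ± 1.05 CPM (SD, n = 5) to 18.5 ± 3.22 CPM (n = 5), a log2 fold change of 1.18 (SE 0.13, adjusted p = 3.77e-08). With each library left out in turn, it was 1.11 to 1.25.

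In the co-treated group Rarb ranged from 7.97 to 12.3 CPM with a median of 10.6 CPM, overlapping the vehicle group. The co-treated libraries lay below all cisplatin libraries, as for 18.5% of all genes. That difference was a log2 fold change of -0.83 (SE 0.12) against cisplatin and 0.35 (SE 0.13) against vehicle. KW6002 alone gave 0.29 (SE 0.13, adjusted p = 0.399). Of the 5265 exonic bases of Rarb, 1793 also lie in exons of Top2b, a topoisomerase gene on the other strand, and whether strand was used in counting is not given in the sources used here. Top2b rose with cisplatin by less than Rarb, at a log2 fold change of 0.32 (SE 0.04, adjusted p = 9.96e-07), and its part in the Rarb counts was not tested.

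RARA is a widely expressed retinoic acid receptor. Rara (chr11:98927818-98974942, plus strand) ranged from 23.7 to 29.0 CPM with vehicle, 21.9 to 31.6 with KW6002, 22.3 to 24.4 with cisplatin, and 28.6 to 34.4 with cisplatin plus KW6002. Every co-treated library lay above every cisplatin library, as for 19.3% of all genes, and the vehicle libraries lay between and overlapped both. Cisplatin lowered Rara by a log2 fold change of -0.20 (SE 0.09, adjusted p = 0.0416), a call that was lost in DESeq2 (adjusted p = 0.0622), in mice of the 500s alone (adjusted p = 0.191), and without any of vehicle replicates 1, 2, and 5 or cisplatin replicates 1, 3, 4, and 5, where adjusted p values ran up to 0.103. Scaled by library size only, the value was 0.01 (adjusted p = 0.905), a scaling that raised the median of all genes in this comparison from -0.012 to 0.204. The co-treated values were 0.39 (SE 0.08) against cisplatin and 0.19 (SE 0.08) against vehicle, and KW6002 alone gave 0.00 (SE 0.08, adjusted p = 0.996).

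RXRA is the common partner of the RARs and of several other nuclear receptors. Rxra (chr2:27676440-27762957, plus strand) was the steadiest member, from 161 to 213 CPM over the vehicle, KW6002, and cisplatin libraries and from 178 to 243 CPM in the co-treated libraries. All 4 groups overlapped, with means of 183 to 198 CPM. Its log2 fold change was -0.07 (SE 0.07, adjusted p = 0.391) with cisplatin and -0.10 (SE 0.07, adjusted p = 0.597) with KW6002, and 0.08 (SE 0.07) in the co-treated group against cisplatin.

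With cisplatin, 4 of the 7 members passed, 1 higher and 3 lower, whereas 70.5% of all genes passed in this comparison (34.6% higher and 35.9% lower), so the share of members that moved was not above that of genes in general. With KW6002 alone, none of the 7 members passed in edgeR or in DESeq2, whereas 0.0175% of all genes passed in edgeR. An unadjusted p below 0.05 was found for 2 members, Rbp4 and Rarb, and for 11.3% of all genes. The median log2 fold change of the members with cisplatin was -0.07, beside -0.01 over all genes.

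Levels of different genes were compared per kilobase of exon. In vehicle kidneys the order was Rdh16f2 at 91.9 to 109 CPM per kilobase, Rxra at a mean of 35.9 (33.5 to 39.0), Rdh10 at 14.5 (12.6 to 17.5), Rara at 6.09 (5.44 to 6.65), Rbp4 at 5.43 (1.07 to 13.0), Stra6l at 1.87 (1.38 to 2.22), and Rarb at 1.55 (1.36 to 1.88). The range of Rbp4, whose mean was raised by vehicle replicates 1 and 2, overlapped those of Rdh10, Rara, Stra6l, and Rarb, and Stra6l and Rarb also overlapped. In co-treated kidneys Stra6l, at 7.10 (4.59 to 9.47), stood beside Rara, at 6.94 (6.56 to 7.88), and Rbp4, at 0.757 (0.444 to 1.02), stood last.

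The wider pathway was described by 57 genes in lists of carriers and uptake, ester storage, interconversion of retinol and retinal, carotenoid cleavage, retinoic acid synthesis and breakdown, receptors, and genes known to respond to retinoic acid, of which 48 could be tested, the 7 members included. With cisplatin, 15 were higher and 24 lower than with vehicle, against 34.6% and 35.9% of all genes, and the median log2 fold change was -0.22 beside -0.01 over all genes. Scaled by library size only, the counts were 20 and 18. Under the stricter limits, 11 were higher and 13 lower, against 12.1% and 12.1% of all genes. With KW6002 alone, 0 of 48 passed in edgeR, against 0.0175% of all genes, and 0 in DESeq2. In edgeR, 8 had an unadjusted p below 0.05, against 11.3% of all genes. The 41 pathway genes that are not members were tested for the addition of KW6002 to cisplatin, and 14 were higher and 12 lower than with cisplatin (34.1% and 29.3%), against 28.6% and 27.2% of all genes, and 8 and 6 did so under the stricter limits, against 4.65% and 5.66% of all genes. Against vehicle, 10 of the 41 were higher and 14 lower in the co-treated group (24.4% and 34.1%), against 29.8% and 29.9% of all genes, and 7 and 5 under the stricter limits, against 5.83% and 7.59% of all genes. These comparisons share libraries, so the values of each stand side by side and are not independent. The lists were chosen with earlier results of these data known, so their shares beside all genes are a description.

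Of 12 uptake and carrier genes tested, 7 were lower and 3 higher with cisplatin, beside 35.9% and 34.6% of all genes. Stra6, the best known receptor for RBP4 and the relative of Stra6l, ranged from 4.21 to 6.28 CPM with vehicle, 0.64 to 1.02 with cisplatin, and 3.26 to 6.09 with cisplatin plus KW6002. Its log2 fold change was -2.73 (SE 0.19, adjusted p = 1.37e-11) with cisplatin and 2.56 (SE 0.18, adjusted p = 1.67e-10) for co-treatment against cisplatin. Unlike Stra6l, Stra6 in the co-treated libraries overlapped the vehicle group. No stretch of 50 bases, the read length, was shared between Stra6l and any other gene's transcripts, nor between Stra6 and any other.

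Megalin (Lrp2) and cubilin (Cubn) take filtered carrier proteins back into proximal tubule cells, transthyretin (Ttr) holds RBP4 in blood, and apolipoprotein M (Apom) can bind retinol. Lrp2 fell with cisplatin from 3640 ± 336 CPM (SD, n = 5) to 575 ± 103 CPM (n = 5) and stood at 1480 ± 206 CPM (n = 6) with co-treatment, where it was higher than with cisplatin (log2 fold change 1.36, SE 0.11, adjusted p = 1.06e-09). Log2 fold changes with cisplatin were -1.36 for Cubn, -4.36 for Ttr, and -3.32 for Apom, and all 3 were higher in the co-treated than in the cisplatin group, by 0.57, 1.44, and 2.34. The summed proximal tubule markers moved with these genes, and their part was not tested. Fabp5, a fatty acid and retinoic acid carrier, fell with cisplatin by 1.77 on the log2 scale (adjusted p = 3.98e-05) and stood at 1.93 CPM with co-treatment and 2.11 CPM with cisplatin.

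Crabp1, which carries retinoic acid inside cells, had few counts outside the cisplatin group. There were 4 counts over all vehicle libraries, 7 over the KW6002 libraries, 6 over the co-treated libraries, and 65 to 654 counts in each cisplatin library, a mean of 9.03 ± 5.63 CPM (SD, n = 5). Crabp1 passed as higher in the cisplatin than in the vehicle group (adjusted p = 8.8e-10) and as lower in the co-treated than in the cisplatin group (adjusted p = 8.66e-10).

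Storage genes were led by Lrat, which makes retinyl esters. Lrat fell with cisplatin from 7.18 ± 2.05 CPM (SD, n = 5) to 2.00 ± 0.739 CPM (n = 5), with a log2 fold change of -1.84 (SE 0.29, adjusted p = 4.94e-06). In the co-treated group it ranged from 8.44 to 10.9 CPM, above all cisplatin libraries, as for 19.3% of all genes. That range overlapped the vehicle range of 4.46 to 9.74 CPM. Against cisplatin the log2 fold change was 2.30 (SE 0.28, adjusted p = 3.46e-07).

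Among the 16 interconversion genes tested, 3 were higher and 9 lower with cisplatin, beside 34.6% and 35.9% of all genes. Rdh12, a retinal reductase, rose from 0.582 ± 0.122 CPM (SD, n = 5) to 3.55 ± 0.974 CPM (n = 5) and stood at 1.56 ± 0.167 CPM (n = 6) with co-treatment, lower than with cisplatin (adjusted p = 2.45e-06). Adh1, an alcohol dehydrogenase that also oxidizes retinol, fell from 420 ± 23.1 CPM (n = 5) to 150 ± 20.9 CPM (n = 5), and Dhrs4, a carbonyl and retinal reductase, fell from 310 ± 12.0 CPM (n = 5) to 153 ± 26.9 CPM (n = 5). With co-treatment Adh1 stood at 265 ± 42.6 CPM and Dhrs4 at 233 ± 31.5 CPM (n = 6), both higher than with cisplatin (adjusted p = 7.32e-07 and 1.11e-05).

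The carotenoid oxygenases moved in opposite directions with cisplatin. Bco1, which cleaves carotene to retinal, rose by a log2 fold change of 2.73 (SE 0.19, adjusted p = 1.26e-11), from 3.9 to 25.9 CPM, and Bco2, which cleaves carotenoids off centre, fell by 2.26 on the log2 scale (SE 0.15, adjusted p = 5.05e-12), from 23.2 to 4.85 CPM. With co-treatment they stood at 14.2 and 7.52 CPM.

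Of the 4 retinoic acid synthesis genes tested, 3 rose and 1 fell with cisplatin, beside 34.6% and 35.9% of all genes. Aldh1a1, which oxidizes retinal to retinoic acid, rose from 15.1 ± 3.35 CPM (SD, n = 5) with vehicle to 289 ± 10.2 CPM (n = 5) with cisplatin, a log2 fold change of 4.26 (SE 0.18, adjusted p = 3.69e-15). It stood at 137 ± 20.6 CPM (n = 6) with co-treatment, below all cisplatin libraries, as for 18.5% of all genes (log2 fold change -1.08, SE 0.15, adjusted p = 1.98e-06). Aldh1a2 rose from 3.36 ± 1.71 CPM (n = 5) to 36.8 ± 2.86 CPM (n = 5) with cisplatin (adjusted p = 4.3e-10) and stood at 25.4 ± 8.08 CPM (n = 6) with co-treatment, which overlapped the cisplatin group and did not pass (log2 fold change -0.53, adjusted p = 0.0612). It passed without vehicle replicate 1, KW6002 replicate 5, or co-treated replicate 1 or 5 (adjusted p = 0.0293, 0.036, 0.0369, and 0.026). The Aldh1a2 difference also passed when the fit held only the groups compared (adjusted p = 0.0161) or only mice of the 500s (0.0199), with the label series as a covariate (0.0326), and when scaled by library size only (0.044).

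Aldh1a3 passed as higher with cisplatin (log2 fold change 1.85, SE 0.60, adjusted p = 0.00872), a call that was lost in mice of the 500s alone (1.94, adjusted p = 0.0819). The vehicle libraries held 2.70 to 4.45 CPM and the cisplatin libraries 12.1 to 15.2 CPM. KW6002 libraries ranged from 2.76 to 21.8 CPM, with replicate 5 above every cisplatin library. Their difference from vehicle did not pass (1.13, SE 0.58, adjusted p = 0.471). In the co-treated group replicate 1 stood at 24.9 CPM and the other 5 libraries at 2.18 to 4.0 CPM. Against cisplatin the co-treated value of Aldh1a3 was -1.05 (SE 0.54, adjusted p = 0.103), and without co-treated replicate 1 it was -2.22 (adjusted p = 6.15e-05). Aldh8a1, also on the synthesis list, went the other way with cisplatin, from 393 ± 20.1 CPM (SD, n = 5) to 113 ± 25.3 CPM (n = 5). It stood at 256 ± 16.6 CPM (n = 6) with co-treatment.

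For breakdown, Cyp26b1 rose with cisplatin from 8.31 ± 4.32 CPM (SD, n = 5) to 41.2 ± 9.07 CPM (n = 5), a log2 fold change of 2.31 (SE 0.32, adjusted p = 1.2e-06), and stood at 25.6 ± 9.1 CPM (n = 6) with co-treatment (-0.69 against cisplatin, SE 0.29, adjusted p = 0.0447). The last call was lost in DESeq2 (adjusted p = 0.0753) and when any of 8 libraries was left out (adjusted p up to 0.123). Cyp26a1, which carries the response element printed above, was near the detection limit, with 8 to 15 counts per vehicle library and 2 to 7 per cisplatin library. It fell with cisplatin by 1.96 on the log2 scale (SE 0.41, adjusted p = 0.000174), opposite to Rarb, the other gene whose window held the element. Of 11 tested genes known to respond to retinoic acid, 6 were higher and 4 lower with cisplatin, beside 34.6% and 35.9% of all genes. Stra6 and Lrat, described above, are on this list and fell. Rarres2, also on it, rose with cisplatin from 35.0 to 70.3 CPM (log2 fold change 1.01, SE 0.14, adjusted p = 1.33e-06) and stood at 35.9 CPM with co-treatment.

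The receptors that are not members differed in size of change. Rarg rose with cisplatin from 19.6 ± 2.68 CPM (SD, n = 5) to 33.4 ± 1.7 CPM (n = 5), with a log2 fold change of 0.77 (SE 0.08, adjusted p = 3.1e-08), and was lower with co-treatment, at 24.3 ± 1.85 CPM (n = 6, adjusted p = 3.79e-05). Rxrb passed as lower with cisplatin by a small amount (-0.15, SE 0.05, adjusted p = 0.0147), and scaling by library size only turned it to 0.07. That call was lost without vehicle replicate 5 (-0.11, adjusted p = 0.0604). Rxrg, at 0.787 CPM with vehicle, passed as lower with cisplatin (-1.05, SE 0.42, adjusted p = 0.028), a call lost in mice of the 500s alone (-0.34, adjusted p = 0.638) and without vehicle replicate 1 or 2 or cisplatin replicate 1 or 2.

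**Figure D3:**
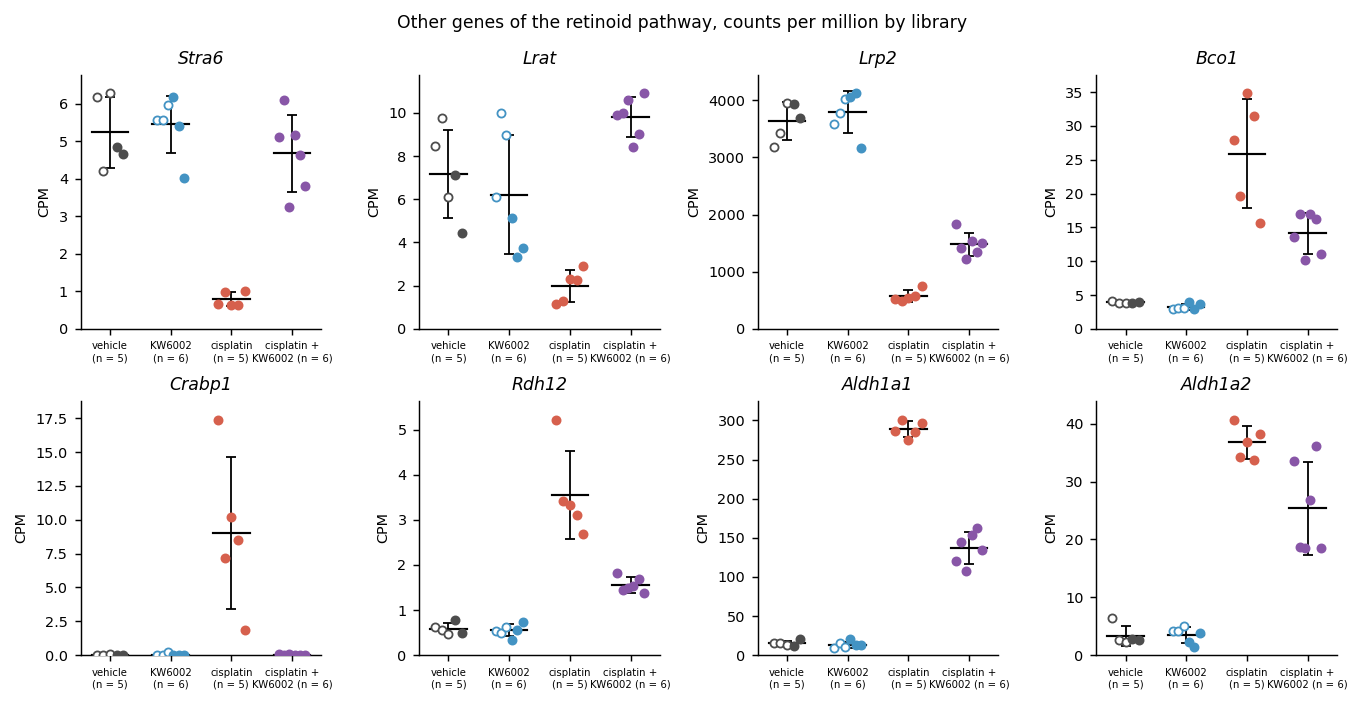
CPM (vertical axes, each from 0) of 8 pathway genes that are not members, by group. Points are libraries, filled for label numbers in the 500s and open for the 300s, and lines with bars are means and SD. Stra6, Lrat, and Lrp2 are lowest with cisplatin, and Bco1, Crabp1, Rdh12, Aldh1a1, and Aldh1a2 are highest there, Bco1 and Aldh1a2 with overlap between cisplatin and co-treatment.

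Rdh16f2 sits in a cluster of related dehydrogenases. Within 200 kb on either side, GENCODE M21 lists 18 protein-coding genes including Rdh16f2, of which 13 were tested. None of the 12 tested neighbours had every co-treated library above every vehicle and cisplatin library, a pattern that 3.14% of all genes tested had. Against cisplatin, 2 neighbours were higher in the co-treated group (Rdh7 and Prim1) and 3 lower (Nemp1, Tac2, and Gpr182), against 28.6% and 27.2% of all genes. Against vehicle, 6 neighbours were higher with co-treatment (Tac2, Zbtb39, Gpr182, Rdh16, Rdh19, and Prim1), against 29.8% of all genes, and the other 6 did not pass in either direction. Tac2, which is in both counts, had few reads, with 0 over the vehicle, 94 over the cisplatin, and 18 over the co-treated libraries.

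Rdh16, the most abundant neighbour and a retinol and steroid dehydrogenase, stood at 210 ± 15.7 CPM (SD, n = 5) with vehicle, 254 ± 58.9 (n = 5) with cisplatin, and 316 ± 44.5 (n = 6) with co-treatment. Its co-treated libraries lay above all vehicle libraries, as for 18.9% of all genes (log2 fold change 0.59, SE 0.14, adjusted p = 0.00079) and overlapped the cisplatin libraries (0.32, SE 0.14, adjusted p = 0.0534). Rdh7, on the other side of Rdh16f2, fell with cisplatin from 0.54 to 0.215 CPM (-1.31, SE 0.35, adjusted p = 0.00201) and stood at 0.546 CPM with co-treatment. Rdh19, the nearest protein-coding gene upstream, had low levels, with means of 0.307, 0.222, 0.492, and 0.725 CPM with vehicle, KW6002, cisplatin, and co-treatment. Its co-treated libraries lay above all vehicle libraries (1.24, SE 0.28, adjusted p = 0.000694) and overlapped the cisplatin libraries (0.56, SE 0.26, adjusted p = 0.0658).

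Of the 1216 different stretches of 50 bases in Rdh16f2 transcripts, 122 (10.0%) also occur in transcripts of other genes, among them Rdh9, Rdh19, Rdh16f1, and Rdh1. The authors kept uniquely aligned reads, so reads of these stretches may be missing from the counts. For Rdh16 the share was 14.0%. Of the other members, Rara shared 0.23% of its stretches with other genes and the rest shared 0.

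**Figure D4:**
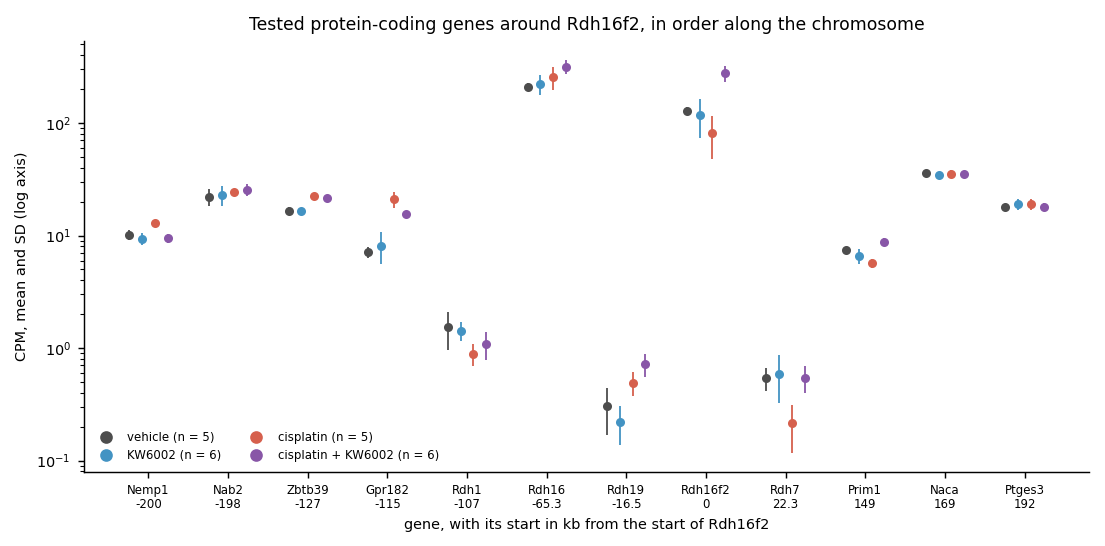
Mean CPM with SD (vertical, log axis) in the 4 groups for tested protein-coding genes around Rdh16f2, in order along the chromosome, with the distance of each start from that of Rdh16f2 in kb. Tac2, at 0 counts in the vehicle group, is left out. The co-treated mean of Rdh16f2, at 276 CPM, lies above the means of its other groups, at 81.7 to 129 CPM. The means of Nab2, Rdh16, Rdh19, and Prim1 are also highest with co-treatment, at 25.6, 316, 0.725, and 8.74 CPM.

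The 5 genes whose profile over the 22 libraries was most like that of Stra6l were found by the root-mean-square difference in log2 CPM after subtracting each gene's mean, among the 14223 genes whose average log2 CPM was 0 or more. They were Mthfd2 (0.34), Irgm1 (0.40), Gm27252 (0.41), Bex1 (0.43), and Golt1a (0.43), beside a median of 0.92 over all these genes. Mthfd2, a mitochondrial enzyme of folate metabolism, stood at 2.9, 3.29, 4.6, and 9.55 CPM with vehicle, KW6002, cisplatin, and co-treatment. Irgm1, a GTPase induced by interferon, stood at 54, 54.2, 60.4, and 141 CPM.

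For Rdh16f2 the closest were Slc13a1 (0.29), Gm40663 (0.35), B830017H08Rik (0.38), Cpn1 (0.40), and Gm30097 (0.43), beside a median of 0.86. Slc13a1, the sodium-sulfate cotransporter of the proximal tubule, stood at 457 ± 71.6 CPM (SD, n = 5) with vehicle, 442 ± 115 (n = 6) with KW6002, 255 ± 90.8 (n = 5) with cisplatin, and 877 ± 113 (n = 6) with co-treatment. Cpn1, a carboxypeptidase subunit, stood at 76.1, 57.8, 44.6, and 152 CPM in the same order. None of the genes closest to Stra6l or Rdh16f2 was in the retinoid pathway lists, and neither list of 5 held a gene of the other. All these closest genes had every co-treated library above every vehicle and cisplatin library. That pattern chose Stra6l and Rdh16f2, and no other pathway gene tested had it. So nothing is read from the absence of pathway genes.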

How the data were processed

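Kidney RNA of 22 mice in 4 groups was sequenced as strand-specific, single-end libraries. The authors aligned the 50-base reads to mm10 with STAR, kept uniquely aligned reads, counted reads per Ensembl gene with HTSeq-count 0.6.1p1 in union mode, and deposited raw counts with no normalization. Whether strand was used in counting is not given in the sources used here. Empty columns of the table that match no sample (66) were not used.

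Of 32858 genes, 17131 passed edgeR's filterByExpr (10 counts, which is 0.306 CPM here, in at least 5 libraries, and 15 in all). These held 99.9% of counts, and totals had a median of 32721214.5. Counts were scaled by TMM (factors 0.925 to 1.12) and tested in edgeR 4.0.16 (R 4.3.3) with the quasi-likelihood test in 1 fit of all libraries, without covariates and with Benjamini-Hochberg adjustment over all genes tested. The fit was tested on simulated counts. Alternatives were DESeq2 1.42.0, other scalings and filters, fits of fewer libraries, a replicate block, covariates for label series and fat markers, and each library left out. No 2 libraries of a group were the same within counting noise.

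The members and the gene lists were chosen with earlier results of these data known. Since the co-treated group chose members, they carry no test against it. Named are the 7 members, other pathway genes past the study's limits (adjusted p below 0.01, log2 fold change beyond 1) with cisplatin or its co-treatment at an average log2 CPM of at least 0, every receptor, the 5 genes most like Stra6l and Rdh16f2, and neighbours of Rdh16f2 within 200 kb. Cyp26a1 was added after its values were seen. Gene positions are from GENCODE M21, and promoter windows of 250 bases before to 50 after each start from RefSeq. One other gene that met this rule is not reported here, and counts over lists include it.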

Additional observations from a re-analysis of the deposited data

Results flagged for a closer look

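Among 120 checks of 30 genes in 4 groups, 8 found a library at a distance from its group beyond Dixon's 95% critical value, and chance gives about 1 in 20. Of the members, Rara stood at 34.4 CPM in co-treated replicate 4, where the next library held 30.7 CPM, and Rxra at 243 CPM in co-treated replicate 3, with the next at 198 CPM.

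Of the other pathway genes, Aldh1a3 stood at 24.9 CPM in co-treated replicate 1 and at no more than 4.0 CPM in the rest of that group. Aldh1a2 stood at 6.41 CPM in vehicle replicate 1, with the next at 2.82 CPM. Rdh12 stood at 5.22 CPM in cisplatin replicate 1, with the next at 3.42 CPM. Dhrs4 stood at 294 CPM in co-treated replicate 6, the library with adrenal markers, with the next at 232 CPM. Stra6 was lowest in KW6002 replicate 6, at 4.02 CPM, with the next at 5.41 CPM, and Crabp1 was at 0.211 CPM in KW6002 replicate 3, with the next at 0.0261 CPM.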

How the results depend on the processing

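Of 264 recomputed counts of pathway genes, 260 stayed within 1.5 times the value given. The exceptions were counts under the stricter limits, with 13 genes lower with cisplatin, 8 higher and 6 lower with co-treatment against cisplatin, and 5 lower with co-treatment against vehicle. With each library left out in turn, 14 to 16 pathway genes were higher and 20 to 24 lower with cisplatin, and 14 to 16 were higher and 11 to 16 lower with co-treatment against cisplatin. Of gene fold changes, 2275 kept their call and direction or moved within the spread.

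Scaling by library size only gave cisplatin values of 0.01 for Rara, 0.14 for Rxra, and 0.07 for Rxrb, turning their direction, and mean levels of 58.5 CPM for Rdh10 and 172 CPM for Rxra with KW6002 and 25.1 CPM for Rara with cisplatin. In mice of the 500s alone, the cisplatin value was 0.29 for Rbp4 and -0.09 for Rdh10, and the KW6002 value -0.17 for Rdh10 and -0.03 for Rara, with 2 vehicle libraries left. With no filter the KW6002 value of Rara was -0.00. With the fat marker covariate, co-treatment against cisplatin was 0.59 for Fabp5 and 0.49 for Rxrg. Leaving out each library gave KW6002 values of -0.01 to 0.12 for Rdh10 and -0.05 to 0.05 for Rara, and co-treatment values of -0.27 to 0.17 for Fabp5, above 0 without cisplatin replicate 5. The cause was not tested for any of these.

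Replicate numbers showed no general pairing of the mice: over 31 pairs with the same number, the correlation of deviations had a median of 0.00846 (range -0.175 to 0.405). It was above 0.1 in 7 pairs, and the median cannot exclude shared deviations in some pairs. With a replicate block, 15 pathway genes were higher and 22 lower with cisplatin, the value of Rbp4 was -0.89 (adjusted p = 0.142) and of Rara -0.20 (adjusted p = 0.0553) in edgeR, and the KW6002 value of Rara was -0.02. The block changed the call or direction of 3 of 74 gene values, these named.

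Depth limits the low genes most: Rbp4 had as few as 19 counts in a library.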

Other observations

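Of the 57 pathway genes listed, 5 had a row but too few counts to test. Over all 22 libraries, Rbp2 had 34 counts, Rdh8 1, Rdh9 23, Adh4 56, and Cyp26c1 59, with at most 7, 1, 3, 9, and 7 in any library. For Rdh9, 68.3% of the 50-base stretches of its transcripts also occur in transcripts of other genes, against 10.0% for Rdh16f2. Rpe65, Rlbp1, Rdh16f1, and Sdr16c5 were not analysed here.

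Among the promoter windows, a direct repeat of the same half-site with 1 base between, a spacing bound by RXR pairs, was found in 73 of 32851 windows (0.222%), counting both strands. The pathway gene with such a window was Bco1, whose counts rose with cisplatin.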
